A study of Mus musculus with 10 samples.

Results

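The enzymes that make serine and the folate enzymes that carry its 1-carbon unit were followed in interscapular brown fat (iBAT) of mice that lack cardiolipin synthase in fat cells. The set holds 10 of the 15075 genes measured, taken by gene symbol: the serine synthesis enzymes Phgdh, Psat1 and Psph, the mitochondrial folate enzymes Shmt2, Mthfd2, Mthfd2l, Mthfd1l and Aldh1l2, and the cytosolic folate enzymes Shmt1 and Mthfd1. AdCKO mice (5, labelled KO) carried Adipoq-Cre, which is active in white as well as brown adipocytes and not in the other cells of the depot, on a homozygous background of Crls1 with floxed exon 4. Control mice (5, labelled WT) carried the same floxed allele without Cre. All were C57BL/6 mice of 20 weeks kept at room temperature. Their sex is not given, and 1 library of polyadenylated RNA was made from the iBAT of each mouse. Levels are the deposited normalized reads per kb of counted exon, a signal corrected for gene length, so that genes can be compared with each other. They are not counts and no value is 0, so fold changes of low genes may be understated, by an amount not measured here. The depth of each library is unknown.

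Serine is made from the glycolytic intermediate 3-phosphoglycerate by PHGDH, PSAT1 and PSPH in turn. Serine hydroxymethyltransferase, SHMT2 in mitochondria and SHMT1 in the cytosol, then splits serine into glycine and a 1-carbon unit bound to tetrahydrofolate. In mitochondria MTHFD2 or MTHFD2L oxidizes that unit and MTHFD1L releases it as formate, whereas ALDH1L2 oxidizes it to carbon dioxide. In the cytosol the trifunctional MTHFD1 takes up the formate for the synthesis of purines, thymidylate and methionine. Several of these genes are known targets of the transcription factor ATF4, which cells use when amino acids run short or mitochondria are stressed.

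The targeted gene Crls1 was measured at 1291, 927, 813, 1101 and 1170 normalized reads per kb in Control 1 to 5 and at 193, 195, 249, 208 and 242 in AdCKO 1 to 5. Its AdCKO mean came to 20.5% of that in Control (log2 fold change -2.27, adjusted p = 3.53e-08 by limma, SE 0.13), and each library matched its label. Normalized reads totalled 7615403 to 8171138 per Control library and 5419800 to 5843024 per AdCKO library. AdCKO 1, 2 and 4 stood apart by their skeletal muscle transcripts: the summed level of 8 markers was between 93.5 and 121 in Control, 138 and 125 in AdCKO 3 and 5, and 5509, 21335 and 8159 in AdCKO 1, 2 and 4. All 8 macrophage markers were higher in AdCKO, with sums of 428 to 1222 in Control and 5845 to 7863 in AdCKO. All 5 fibroblast markers were higher too (878 to 1131 against 3496 to 5087). Beside these counts, 25.6% of all tested genes were higher. The lowest value of a macrophage marker in any library was 4.80, under the minimum mean of 10 for testing. A marker that reached this minimum only through AdCKO had to be higher, and whether any did was not examined. The sums of 6 cycling-cell markers were 20.5 to 35.8 in Control and 69.7 to 89.1 in AdCKO. Of the 6 markers 4 were tested and all 4 were higher. The Control sums are too low for all 4 to have reached the minimum for testing, given below, in Control. Those that passed it only through AdCKO had to be higher, so the count of 4 adds nothing to the sums. Endothelial sums overlapped (1303 to 1639 against 1348 to 1833), as did those of lymphocyte markers, which ran from 26.6 to 47.5 in Control and reached 184 in AdCKO 1. The 6 adipocyte markers, Adipoq and Ucp1 among them, were abundant in each library. Their sums were 211712 to 239045 in Control and 133186 to 155798 in AdCKO. Of the 6, 5 were lower, as were 28.0% of all tested genes. The library totals given above were lower in AdCKO too, and the marker calls were not examined with totals set equal. No marker of any list was at 0. In such whole tissue, fewer cells of a type and less RNA per cell cannot be told apart.

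Genes were called at an adjusted p under 0.01 (limma on log2(value + 1), Benjamini-Hochberg over 11244 genes whose mean reached 10 in either group). Of the 10 enzymes 9 were tested, of which 5 were higher and 4 lower. Of the 5, Aldh1l2 reached a mean of 10 only in AdCKO (2.55 in Control), so that it had to be higher. Among all tested genes 25.6% were higher and 28.0% were lower. The groups did not overlap for 8 of the 9, with AdCKO above Control for 5 and below for 3, against 24.5% and 26.4% of all tested genes. The median log2 fold change, Aldh1l2 included, was 0.50 over the 9 tested enzymes and -0.01 over all tested genes. The rises were large and the falls small: Psat1, Mthfd2, Phgdh and Aldh1l2 changed by more than 5-fold and no fall reached 2-fold. How the falls stand depends on scaling. With every library set to the same total, the median of all tested genes moved to 0.46, 60.6% of them were higher and 9.77% lower, the 5 higher enzymes were still called, and none of the 4 lower ones was (Psph -0.14, Shmt1 -0.09, Mthfd2l 0.02 and Mthfd1 0.14). Relative to the median of all tested genes, Psph stood at -0.61 and -0.60 under the 2 scalings and Shmt1 at -0.56 and -0.55. Mthfd2l stood at -0.42 and -0.44, and Mthfd1 at -0.32 and -0.32. This likeness is built in, because a new total moves all genes of a library by nearly the same amount. Under quantile normalization the 4 stood at -0.48 for Psph, -0.46 for Shmt1, -0.68 for Mthfd2l and -0.35 for Mthfd1.

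**Figure D1:**
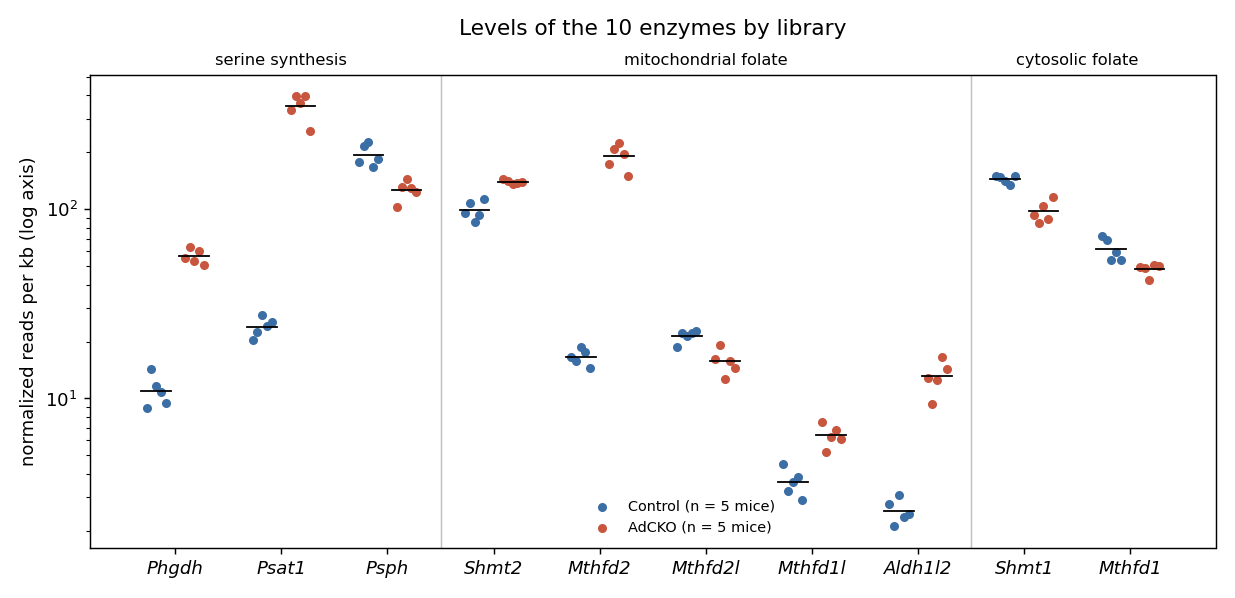
Normalized reads per kb (log axis) of the 10 enzymes in each of the 5 Control and 5 AdCKO libraries, 1 point per mouse, with black lines at the group means. Psat1, Mthfd2, Phgdh and Aldh1l2 show wide gaps between the groups, Psat1 rising from a mean of 24.0 to 349.8, while Psph, Shmt1, Mthfd1 and Mthfd2l lay slightly lower in AdCKO, a difference not called when every library has the same total.

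The start sites of these genes were compared first by sequence. RefSeq promoter windows of 250 bases before to 50 after the start (GRCm38.p6) were given for 9 of the 10 enzymes, all but Aldh1l2, with 2 windows for Psat1. Each of the 10 windows matched mm9, the build of the files, exactly once, and all but the second Psat1 window began at the start of the transcript that was counted. The upstream 250 bases are shown for the enzymes with the 3 largest rises and for Psph, which fell. They are given 5′ to 3′ on the strand of the gene with each CpG dinucleotide in capitals, for Psat1 at chr19:15999550-15999799, Mthfd2 at chr6:83267599-83267848, Phgdh at chr3:98143893-98144142 and Psph at chr5:130293130-130293379, all on the minus strand of mm9:
Psat1: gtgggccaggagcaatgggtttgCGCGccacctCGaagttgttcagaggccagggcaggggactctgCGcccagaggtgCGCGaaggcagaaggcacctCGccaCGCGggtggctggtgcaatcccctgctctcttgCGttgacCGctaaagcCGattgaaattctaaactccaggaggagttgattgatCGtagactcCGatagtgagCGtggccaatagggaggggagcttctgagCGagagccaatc
Mthfd2: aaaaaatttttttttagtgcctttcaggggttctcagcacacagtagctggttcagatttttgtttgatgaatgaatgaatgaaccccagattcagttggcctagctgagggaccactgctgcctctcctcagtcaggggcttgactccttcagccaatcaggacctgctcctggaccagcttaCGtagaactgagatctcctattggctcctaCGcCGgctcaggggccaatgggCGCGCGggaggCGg
Phgdh: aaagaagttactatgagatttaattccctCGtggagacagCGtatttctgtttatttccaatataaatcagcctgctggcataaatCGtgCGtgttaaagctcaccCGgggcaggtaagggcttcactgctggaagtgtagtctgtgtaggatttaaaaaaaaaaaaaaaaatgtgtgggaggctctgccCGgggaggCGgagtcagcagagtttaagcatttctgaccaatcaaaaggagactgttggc
Psph: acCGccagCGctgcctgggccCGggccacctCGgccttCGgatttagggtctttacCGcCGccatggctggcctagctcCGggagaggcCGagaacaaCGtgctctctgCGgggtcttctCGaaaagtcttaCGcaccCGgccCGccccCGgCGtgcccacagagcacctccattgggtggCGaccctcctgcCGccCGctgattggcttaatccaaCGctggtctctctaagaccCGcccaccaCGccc
These 250 bases held 16 CpGs in Psat1, 7 in Mthfd2, 7 in Phgdh and 23 in Psph, against a median of 6 over the 32851 promoters of the table. Their GC content was 59.6%, 52.4%, 44% and 67.2%, with a median of 52.4% over all promoters. The other members held 7 (Shmt2 and Mthfd1l), 12 (Mthfd2l), 13 (Shmt1) and 15 (Mthfd1). The letters TGATGNAA, the core of the element that ATF4 with a C/EBP partner is known to bind, and CACGTG, the E-box that MYC is known to bind, were searched on both strands of the whole 300-base windows. Neither was found in the 10 windows of these genes. They occurred in 3.97% and 7.15% of all promoters, and no match says only that these letters are absent from these windows.

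The serine synthesis pathway was measured at uneven steps in Control iBAT, and the 2 steps with low transcript were the 2 that rose. Phgdh (NM_016966, chr3:98117094-98143892, minus strand of mm9), which commits 3-phosphoglycerate to serine, was at 8.88, 14.3, 11.6, 10.8 and 9.44 normalized reads per kb in Control and at 55.5, 63.1, 53.3, 60.4 and 50.8 in AdCKO. The lowest AdCKO library exceeded the highest Control library by over 3-fold. Its mean rose from 11.0 ± 2.12 to 56.6 ± 5.07 (SD, n = 5), a log2 fold change of 2.28 (adjusted p = 2.58e-08 by limma, SE 0.12). Phgdh has 9 other regions in mm9 with at least 95% identity to its transcript over at least 200 bases, 6 of them over more than 90% of its length and the closest at 98.8% identity, so its level is uncertain to the extent that reads were placed in these copies.

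Psat1 (NM_177420, chr19:15979613-15999549, minus strand), the aminotransferase of the second step, had the largest rise of the set. It was at 20.4, 22.3, 27.7, 24.1 and 25.3 in Control and at 337, 396, 363, 395 and 259 in AdCKO. The lowest AdCKO library, AdCKO 5, was still over 9-fold above the highest Control library. The mean went from 24.0 ± 2.79 to 349.8 ± 56.5 (SD, n = 5), 14.6-fold, with a log2 fold change of 3.80 (adjusted p = 5.74e-10 by limma, SE 0.12). By size of log2 fold change Psat1 stood in place 21 of the 11244 tested genes and by p in place 12.

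Psph (NM_133900, chr5:130271434-130293129, minus strand), the phosphatase of the last step, was the most abundant of the 10 enzymes in Control, at 177, 217, 226, 167 and 185. In AdCKO it was at 102, 130.4, 144, 130.4 and 123. Here the groups did not overlap either, with AdCKO lower. The mean fell from 194 ± 25.6 to 126 ± 15.3 (SD, n = 5), a log2 fold change of -0.62 (adjusted p = 0.00026 by limma, SE 0.11, but 0.24 with the same total in every library). Within a library the ratio of Psat1 to Psph does not depend on scaling: it was 0.124 ± 0.0167 in Control and 2.79 ± 0.477 in AdCKO (SD, n = 5). Psph made up 84.7% of the summed level of the 3 enzymes in Control and 23.8% in AdCKO, where Psat1 made up 65.4%.

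Of the 5 mitochondrial folate enzymes 4 were tested, and 3 of those rose, beside 25.6% of all tested genes (60.6% with the same total in every library). Of the 3, Aldh1l2 passed the minimum only through AdCKO and had to be higher. Shmt2 (NM_001252316, chr10:126954179-126959500, minus strand) supplies the mitochondrial 1-carbon unit. It was at 95.5, 107, 86.2, 93.6 and 114 in Control and at 145, 141, 135, 138 and 140.0 in AdCKO. The AdCKO libraries lay close together, above all Control libraries. The mean rose from 99.2 ± 11.0 to 139.9 ± 3.41 (SD, n = 5), a log2 fold change of 0.50 (adjusted p = 0.00011 by limma, SE 0.08). The annotation places 14 exon bases of Shmt2 in common with Ndufa4l2 on the other strand, and whether the counting used strand is not given in the sources used here.

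Mthfd2 (NM_008638, chr6:83255698-83267598, minus strand) is the dehydrogenase and cyclohydrolase best known from embryonic and proliferating cells. Its level was 16.6, 15.8, 18.7, 17.6 and 14.5 in Control and 173, 209, 224, 195 and 150.5 in AdCKO. No other folate enzyme of the set was as far apart between the groups. The mean rose from 16.7 ± 1.60 to 190.5 ± 29.2 (SD, n = 5), 11.4-fold, with a log2 fold change of 3.43 (adjusted p = 5.80e-10 by limma, SE 0.11). It stood in place 13 of all tested genes by p. The ratio of Mthfd2 to Shmt2 went from 0.171 ± 0.0347 to 1.36 ± 0.230 (SD, n = 5), so that Mthfd2 exceeded Shmt2 in each AdCKO library and in no Control library.

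Mthfd2l (NM_026788, chr5:91360222-91450395, plus strand), the paralog with the same reactions, moved the other way. It was at 18.8, 22.1, 21.5, 22.3 and 22.7 in Control and at 16.2, 19.3, 12.7, 15.9 and 14.6 in AdCKO. The groups overlapped, since AdCKO 2 lay above Control 1. The mean fell from 21.5 ± 1.55 to 15.7 ± 2.40 (SD, n = 5), a log2 fold change of -0.44 (adjusted p = 0.0036 by limma, SE 0.11). This call was close to the threshold in several settings, and among those that lost it were leaving out Control 5 (limma adjusted p = 0.0104) and the same total in every library (0.87). A region on chromosome X matches 1343 bases of Mthfd2l at 97.6% identity, so its level is uncertain in the same way as that of Phgdh.

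The remaining mitochondrial enzymes were the lowest of the set in Control. Aldh1l2 (NM_153543, chr10:82950192-82996885, minus strand) was at 2.76, 2.11, 3.08, 2.37 and 2.46 in Control and at 12.8, 9.31, 12.5, 16.7 and 14.2 in AdCKO. The groups were apart, with a log2 fold change of 1.97 (adjusted p = 4.06e-07 by limma, SE 0.15). Its means were 2.55 ± 0.373 and 13.1 ± 2.68 (SD, n = 5), on either side of the minimum of 10. Mthfd1l (NM_001170785, chr10:6179460-6373466, minus strand) stayed under the minimum and was not tested in the fit, with 4.48, 3.23, 3.64, 3.85 and 2.89 in Control and 7.55, 5.19, 6.27, 6.82 and 6.14 in AdCKO. Its groups did not overlap (p = 0.00794 in a two-sided exact permutation test, the lowest value possible with 5 mice a group), and without the minimum its log2 fold change was 0.68 (adjusted p = 0.0002 by limma, SE 0.11).

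Both cytosolic enzymes were lower in AdCKO iBAT with the authors' normalization, as were 28.0% of all tested genes. Neither enzyme was called with the same total in every library (Shmt1 -0.09, limma adjusted p = 0.33, and Mthfd1 0.14, 0.18). Shmt1 (NM_009171, chr11:60602399-60624767, minus strand) was at 151, 148, 140.4, 134 and 150.2 in Control and at 93.6, 84.5, 104, 88.5 and 117 in AdCKO. Its highest AdCKO library was below its lowest Control library. The mean fell from 144.5 ± 7.36 to 97.5 ± 13.0 (SD, n = 5), a log2 fold change of -0.57 (adjusted p = 0.00011 by limma, SE 0.09). Mthfd1 (NM_138745, chr12:77356219-77420807, plus strand) was at 72.6, 68.9, 53.7, 59.2 and 53.7 in Control and at 49.6, 49.1, 42.3, 50.6 and 50.4 in AdCKO. The groups were apart by a narrow gap, and the log2 fold change was -0.33 (adjusted p = 0.0095 by limma, SE 0.10). This call was close to the threshold: it was lost in 8 of 10 fits that left out 1 library (adjusted p from 0.0058 to 0.0259), each library but Control 3 and Control 5, and in 7 of 10 other alternatives with all libraries.

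**Figure D2:**
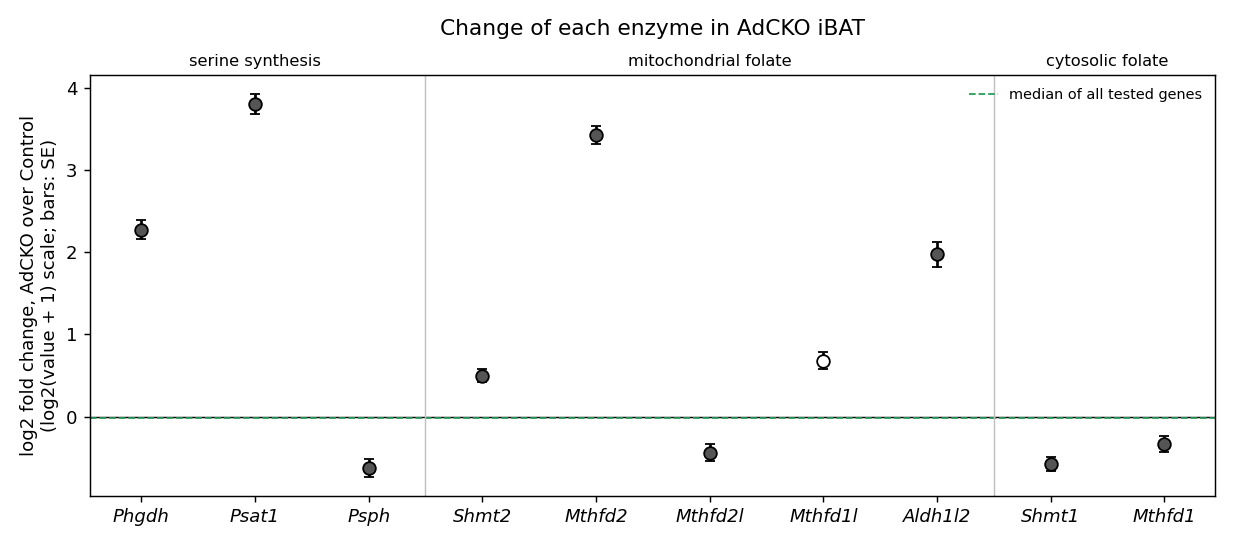
Log2 fold change of each enzyme, AdCKO over Control, on the log2(value + 1) scale with its SE (limma, 5 mice a group). The dashed line is the median of all tested genes at -0.01, and the open point is Mthfd1l, fitted without the minimum on level. Psat1 (3.80) and Mthfd2 (3.43) lie highest, and the 4 points below 0 were not called when every library has the same total.

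The mitochondrial and the cytosolic arm were then compared within each library, where scaling plays no part. For serine hydroxymethyltransferase the ratio of Shmt2 to Shmt1 was 0.634, 0.727, 0.614, 0.7001 and 0.756 in Control and 1.54, 1.67, 1.30, 1.56 and 1.20 in AdCKO. Cytosolic Shmt1 thus exceeded Shmt2 in all 5 Control libraries, and the order was turned in all 5 AdCKO libraries. The difference of the log2 ratios was 1.08 (SE 0.11). For the formyltetrahydrofolate synthetases the ratio of Mthfd1l to Mthfd1 rose from 0.0591 ± 0.00859 to 0.133 ± 0.0192 (SD, n = 5), a log2 difference of 1.17 (SE 0.14), with Mthfd1 above Mthfd1l in each library of both groups. Mthfd1l is low, and with 10 added to both values the log2 difference was 0.56. Between the mitochondrial dehydrogenases the ratio of Mthfd2 to Mthfd2l was 0.883, 0.714, 0.868, 0.793 and 0.640 in Control and 10.7, 10.8, 17.6, 12.3 and 10.3 in AdCKO. Mthfd2l was the higher of the pair in each Control library and Mthfd2 in each AdCKO library, with a log2 difference of 3.97 (SE 0.17). In none of the 3 ratios did the groups overlap, and each gave p = 0.00794 in an exact two-sided permutation test (Benjamini-Hochberg 0.00794 over the 3). With AdCKO 3 and 5 alone, which were low in skeletal muscle transcripts, the log2 differences were 0.87, 1.20 and 4.12 (exact p = 0.0952 each, the smallest that 5 mice against 2 allow).

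The paired enzymes are similar in sequence, and the longest identical runs of their coding sequences are shown because a read within one fits both genes. The coding sequences of Shmt2 and Shmt1 were 69.6% identical over the aligned bases, those of Mthfd1l and Mthfd1 71.7%, and those of Mthfd2 and Mthfd2l 73.5%. The longest shared runs, given 5′ to 3′ from the annotated mm9 transcripts, were of 19, 20 and 20 bases:
Shmt2 and Shmt1: cccaagactggcaaagaga
Mthfd1l and Mthfd1: ggaacgatgagcacaatgcc
Mthfd2 and Mthfd2l: cccatgaccgtggccatgct

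**Figure D3:**
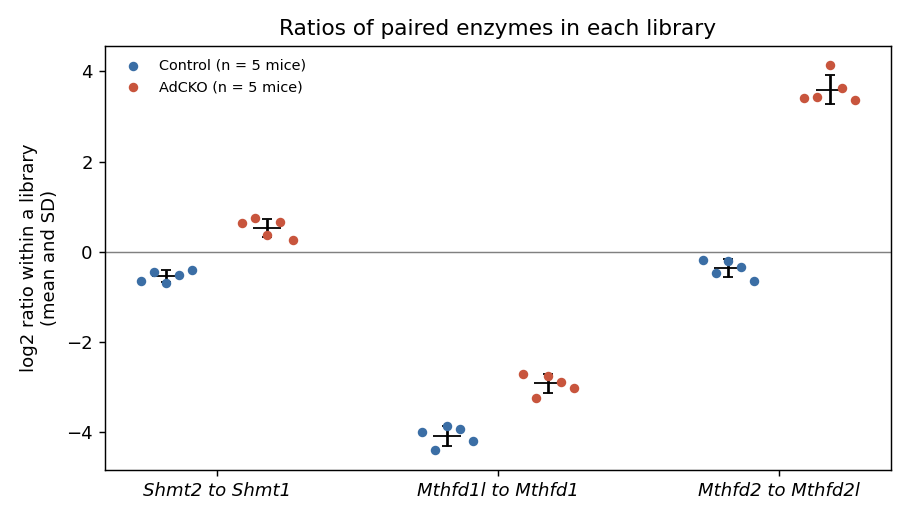
Log2 ratio of the paired enzymes within each library, 1 point per mouse, with the mean and SD of the 5 Control and 5 AdCKO libraries. Values above 0 mean that the first-named gene was higher; Shmt2 to Shmt1 and Mthfd2 to Mthfd2l crossed 0 between the groups, and Mthfd1l to Mthfd1 stayed below 0.

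Summed over the 10 enzymes, the level was 579 ± 31.7 in Control and 1044 ± 81.5 in AdCKO (SD, n = 5). The 3 serine synthesis enzymes summed to 229 ± 28.3 and 532.6 ± 67.5, and the 5 mitochondrial folate enzymes to 143.5 ± 9.52 and 365.7 ± 26.5. The cytosolic enzymes went from 206 ± 13.5 to 145.9 ± 12.8. Their share of the sum, which does not depend on scaling, was 32.8% to 39.3% in the Control libraries and 12.1% to 18.1% in the AdCKO libraries. The mitochondrial share was 22.5% to 26.9% and 34.0% to 35.7%, and the serine synthesis share was 36.4% to 44.8% and 46.8% to 53.4%. None of these ranges overlapped. The 3 shares add to 100% in each library, so the rises of Psat1 and Mthfd2 lower the cytosolic share even without a fall of its enzymes.

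**Figure D4:**
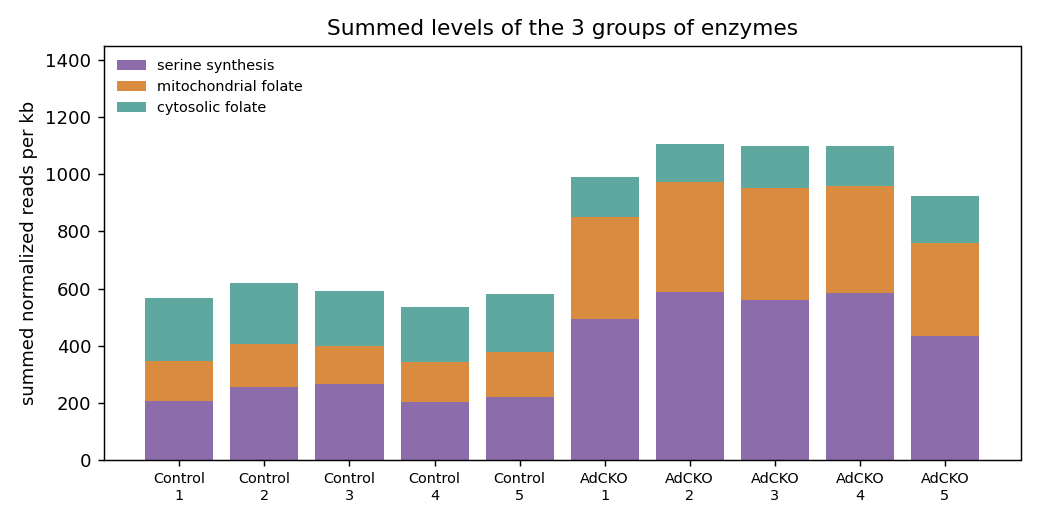
Summed normalized reads per kb of the serine synthesis, mitochondrial folate and cytosolic folate enzymes, 1 stacked bar per library. The totals lie between 534 and 621 in Control and between 925 and 1107 in AdCKO, and the cytosolic part is a smaller share of each AdCKO bar.

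The order of the levels changed as well. In Control it ran from Psph over Shmt1, Shmt2, Mthfd1, Psat1, Mthfd2l, Mthfd2, Phgdh and Mthfd1l to Aldh1l2, where only the ranges of Psat1 and Mthfd2l and those of Mthfd1l and Aldh1l2 overlapped. In AdCKO it ran from Psat1 over Mthfd2, Shmt2, Psph, Shmt1, Phgdh, Mthfd1, Mthfd2l and Aldh1l2 to Mthfd1l, and neighbours overlapped for Shmt2 and Psph, for Psph and Shmt1, and for Mthfd2l and Aldh1l2. Psat1 moved from above 41.9% of all 15075 genes in Control to above 91.1% in AdCKO, and Mthfd2 from above 36.6% to above 83.8%. Shmt1 went from above 78.2% to above 70.5%.

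Markers of other cell types differed between the groups beside these levels, and within the groups they followed them only in part. Among the Control libraries the macrophage sum was highest in Control 3, at 1222 against 428 to 750 in the others. Control 3 also had the highest Psat1 (27.7) and Mthfd2 (18.7) of the Controls, while its Phgdh (11.6) was second to Control 2 (14.3). Among the AdCKO libraries the macrophage sum was highest in AdCKO 2 and 4, at 7863 and 7806, the libraries with the highest Psat1 (396 and 395). Mthfd2 was instead highest in AdCKO 3 (224, against 209 and 195 in AdCKO 2 and 4), where the macrophage sum was 6085. The cycling-cell sum, like Mthfd2, was highest in Control 3 (35.8) and AdCKO 3 (89.1), but lowest among AdCKO in AdCKO 2 (69.7). The fibroblast sum was highest in Control 3 (1131) and AdCKO 2 (5087). It was lowest in AdCKO 5 (3496), as was Psat1 (259), and in Control 5 (878), whereas Psat1 was lowest in Control 1 (20.4). The part of macrophages, fibroblasts and cycling cells in the rises was not tested. With AdCKO 3 and 5 alone, the libraries low in skeletal muscle transcripts, a choice made after the data were seen, the log2 fold changes were 3.63 for Psat1, 3.39 for Mthfd2, 2.16 for Phgdh, 2.02 for Aldh1l2 and 0.48 for Shmt2, each called by limma (adjusted p from 8.75e-08 to 0.0068). Psph (-0.53), Shmt1 (-0.39) and Mthfd2l (-0.62) were still called and Mthfd1 (-0.40) was not (limma adjusted p = 0.0402).

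The genes most like Psat1 over the 10 libraries, by the root mean square difference of their log2(value + 1) values centred on Control, were Trem2 (0.146), Lhfpl2 (0.223) and Adam8 (0.241), out of 11235 genes compared. Trem2, a receptor of myeloid cells, went from 13.1 to 190.2 normalized reads per kb on average. Those most like Psph were Bpnt1 (0.101), Pigh (0.107) and Pex26 (0.124). Both groups of libraries are apart in each of these genes, so the likeness includes the difference between the groups.

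Other genes of the pathway were counted by list, to be read against the 25.6% of all tested genes that were higher and the 28.0% that were lower (60.6% and 9.77% with the same total in every library). Of 4 tested genes of folate transport 3 were lower, also with the same total in every library: Slc25a32, the mitochondrial folate carrier, at a log2 fold change of -0.996 (limma adjusted p = 3.65e-07), the proton-coupled transporter Slc46a1 at -0.82 and the reduced folate carrier Slc19a1 at -1.05. Folr2, a folate receptor known from macrophages, rose from 24.0 ± 2.95 to 96.5 ± 32.8 (SD, n = 5), a log2 fold change of 1.90, beside the macrophage sums given above. Folr1 was under the minimum. Of 4 tested genes of glycine cleavage and mitochondrial 1-carbon donors 3 were lower under both scalings, Sardh (log2 fold change -1.25), Gcsh (-1.06) and Dld (-0.97), and Amt was not called (-0.16). Gldc, the decarboxylase of glycine cleavage, was under the minimum at 1.99 ± 0.197 and 3.40 ± 0.780, and Dmgdh was not analysed here.

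Of 6 tested genes that use serine and glycine 2 were higher and 4 lower, against 25.6% and 28.0% of all tested genes, and 2 were lower with the same total in every library. Gnmt, among the lower genes, passed the minimum only through Control (13.7 against 7.96) and had to be lower. Cth, which makes cysteine, rose by 1.57 and Gatm, which makes the precursor of creatine from glycine, by 1.36 on the log2 scale. Gcat, which breaks threonine down to glycine, fell from 122 ± 13.5 to 33.1 ± 6.12 (SD, n = 5), a log2 fold change of -1.86 (limma adjusted p = 1.06e-07), and serine racemase Srr fell by 1.07. Cbs, which joins serine to homocysteine, and the dehydratase Sds were under the minimum, at means of 1.61 and 2.01 for Cbs. Of 6 tested carriers of serine and glycine 3 were higher, Slc6a9 (log2 fold change 1.70), Sfxn3 (1.33) and Slc38a2 (1.01), and Sfxn1, the mitochondrial serine carrier, was lower at -0.29 but at 0.19 with the same total in every library. Slc6a9 passed the minimum only through AdCKO (7.29 against 26.1) and had to be higher. Slc1a4 was under the minimum, at 4.81 ± 0.819 and 9.23 ± 0.953.

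Among the 9 tested other folate enzymes 2 were higher, Tyms (log2 fold change 0.49), which makes thymidylate, and Fpgs (0.47), which adds glutamates to folate. Tyms passed the minimum only through AdCKO (9.78 against 14.2) and had to be higher. Lower were Mtfmt (-0.66), Mthfs (-0.42) and Aldh1l1 (-0.82), the cytosolic counterpart of Aldh1l2, none of which was called with the same total in every library. Ftcd was under the minimum. Of 6 purine synthesis genes 1 was higher, Atic (0.49), and 4 were lower, led by Gart (-0.51) and Pfas (-0.50), with none of the 4 lower at the same total. In the methionine cycle list 1 of 6 tested genes was higher, the methionine adenosyltransferase Mat2a (0.69). The 2 lower ones were the Ahcy-like genes Ahcyl1 (-1.49, the largest fall of these 3 lists) and Ahcyl2 (-0.68), and 1 was lower at the same total. Ahcy itself was not called (0.19), so the falls are not those of Ahcy. The higher counts of these 3 lists, 2 of 9, 1 of 6 and 1 of 6, stand beside 25.6% of all tested genes, and the lower counts, 3 of 9, 4 of 6 and 2 of 6, beside 28.0%.

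Of 8 regulators known to act on this pathway or in the stress response that includes it 5 were higher and none was lower, against 25.6% and 28.0% of all tested genes. Trib3, a pseudokinase induced by ATF4, rose by 3.34 (limma adjusted p = 2.09e-09) and Ddit3, the stress factor CHOP-10, by 2.70 on the log2 scale. Myc (2.52), Atf4 (1.22) and Atf5 (0.98) were higher as well. Cebpb (-0.54), Cebpg (-0.02) and Nfe2l2 (0.02) were not called, but when every library had the same total 7 of the 8 were higher, Cebpg at 0.45, as were 60.6% of all tested genes. The median log2 fold change was 1.10 over the regulators, 0.50 over the serine and glycine carriers, 0.13 over the other folate enzymes, 0.00 over the methionine cycle, -0.32 over purine synthesis, -0.69 over serine and glycine use, -0.91 over folate transport and -1.01 over glycine cleavage, each beside -0.01 over all tested genes.

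**Figure D5:**
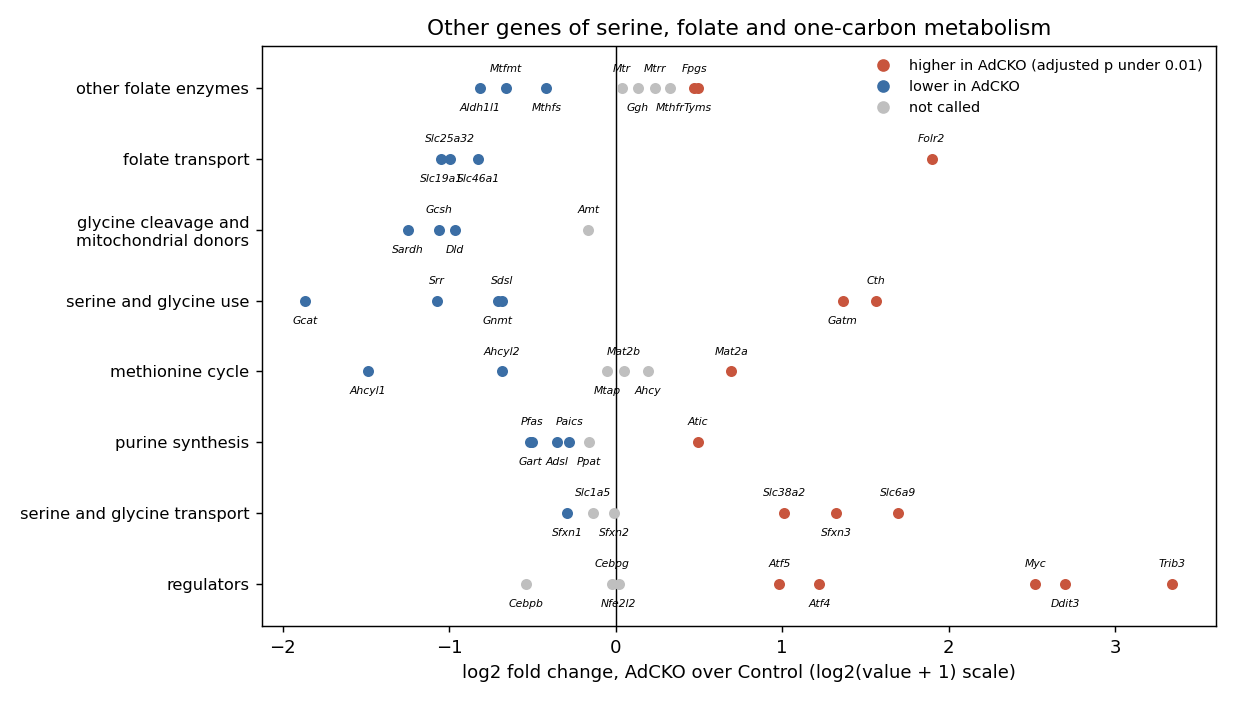
Log2 fold change, AdCKO over Control, of the tested genes in 8 lists around the 10 enzymes, 1 point per gene, coloured by the call of limma at an adjusted p under 0.01. Folate transport and glycine cleavage lie mostly to the left, Folr2 apart, and regulators to the right up to Trib3 at 3.34; the lower calls among other folate enzymes, purine synthesis and serine and glycine transport were lost with the same total in every library.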

How the data were processed

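The iBAT libraries of 5 Control and 5 AdCKO mice were grouped by their labels. Per the methods of the authors, STAR was used for mapping to mm9, iRNA-seq for counting on exons and DESeq2 for normalization, versions not given in the sources used here. The deposited values are a signal, normalized reads per kb for 15075 genes, and were used as given. Low values did not fall on steps of whole reads: 23.4% to 25.8% of them lay within 0.1 of a step, against 20% by chance. Log2 fold changes and adjusted p-values deposited by the authors, and their lists of higher and lower genes, hold their own comparison and were not used.

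A pseudocount of 1 was added before log2, and 11244 genes with a mean of at least 10 in a group were fitted with limma 3.58.1 in R 4.3.3 (intensity trend, two-sided, Benjamini-Hochberg, threshold 0.01). The fit was tested on simulated data. Ratios were compared by exact permutation (scipy 1.17.1). The labels number replicates without naming animals, so p-values measure the spread between these libraries. Transcripts were matched to mm9 with blastn 2.17.0. Figures were drawn with matplotlib 3.10.9.

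The 10 enzymes and the lists of other genes were chosen with earlier results of these data known. Named from each list are at most 2 called members in each direction by smallest p and those not tested, of which 1 is not reported here. Aldh1l1, Slc19a1, Dld, Slc38a2, Gnmt, Myc, Atf4 and Atf5, and uncalled members, were named after their values were seen. The genes most like a member are the 3 nearest to the member with the largest rise and to the member with the largest fall. Alternatives were a pseudocount of 0.1 or 10, no minimum, the same total in every library, quantile normalization, limma with array weights, without a trend or with a robust one, a replicate block, a skeletal muscle score as covariate, a threshold of 0.05, and each library left out. Leaving out AdCKO 1, 2 and 4 was added after seeing the data. The precision stated is the spread between mice, since depth is unknown.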

Additional observations from a re-analysis of the deposited data

Results flagged for a closer look

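Groups of 5 libraries were searched for a sample whose gap to its nearest neighbour exceeds 0.71 of the range of the group (Dixon's test at the 95% level), over 28 groups, of which chance marks about 1 in 20. AdCKO 3 was marked for both results found. Its Mthfd1 level, 42.3 normalized reads per kb, was below the 49.1 to 50.6 of the other AdCKO libraries. Without it the fall of Mthfd1 was -0.29 on the log2 scale and not called (limma adjusted p = 0.0253). Its ratio of Mthfd2 to Mthfd2l, 17.6, was above the 10.3 to 12.3 of the others.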

How the results depend on the processing

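Setting each library to the same total changed the split of all tested genes from 2879 higher and 3152 lower to 6811 higher and 1098 lower, and the lower enzymes of the set from 4 to 0 (serine synthesis 0, mitochondrial folate 0, cytosolic 0). Lower calls were then 0 among other folate enzymes, 0 in purine synthesis, 0 in serine and glycine transport, 1 in the methionine cycle and 2 in serine and glycine use, and higher calls 6 among other folate enzymes and 4 in the methionine cycle. Log2 fold changes that turned, with a call before or after, were Mthfd2l 0.021, Mthfs 0.060, Adsl 0.12, Mthfd1 0.14, Sfxn1 0.19, Paics 0.20, Mtap 0.43 and Cebpg 0.45. Turns of genes called under neither scaling are not listed. Under quantile normalization Mtr turned to -0.32, 0 other folate enzymes were higher and 0 serine and glycine carriers were lower. The cytosolic lower count was 1 with array weights, with no minimum, without the trend, with a pseudocount of 10, with the muscle covariate and without AdCKO 1, 2 and 4. The lower carriers were 0 with array weights, with the covariate and without AdCKO 1, 2 and 4, the last of which, like the covariate, also left 0 higher purine genes and 1 higher other folate enzyme. Without a minimum 1 glycine cleavage gene was higher. In the fits that left out each library in turn, the lower counts ran from 1 to 2 for the cytosolic enzymes, 0 to 1 for the mitochondrial ones and 0 to 1 for the carriers. The ratios without AdCKO 1, 2 and 4 were 0.87, 1.20 and 4.12. The causes were not tested, and the fits that left out libraries also had fewer samples. The 5 higher enzymes were called under all alternatives run. Of the values of single genes, 1207 kept their side of the threshold, 52 lost and 8 gained a call. Another 9 turned direction with a call in the main fit or the alternative. A turn between 2 uncalled values was counted among those kept. Depth is unknown and sets no stated limit.

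Same-numbered libraries of the groups did not deviate together (r from -0.27 to 0.10), so no pairing by number was seen, and no sample was crossed. This cannot exclude a pairing, since AdCKO 1, 2 and 4 also deviate by their skeletal muscle transcripts. With a replicate block 2 enzymes were lower instead of 4 (cytosolic 1, mitochondrial 0), with Mthfd2l at an adjusted p of 0.0101 and Mthfd1 at 0.0107 in limma, other folate enzymes had 1 higher and the carriers 0 lower. The ratios paired in this replicate block kept their differences of 1.08, 1.17 and 3.97 with an exact sign-flip p = 0.0625, the smallest that 5 pairs allow.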
